A study of Homo sapiens with 8 samples.

Results

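The genes examined were those of cholesterol synthesis, uptake, transport and efflux, and the cells were ZR-75-1 breast cancer cells with a stable knockdown of EI24. A list of 32 gene symbols was looked up in the gene annotation of the array, with 1 transcript cluster kept for each gene. Of these, 29 were measured among 18417 genes, namely 7 enzymes from acetyl-CoA to farnesyl diphosphate, 9 enzymes from squalene to sterols, 5 genes of SREBP control, 4 genes of sterol transport and storage and 4 genes of efflux and LXR signaling. FDFT1, NR1H2 and HSD17B7 are not analysed here.

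Cells make cholesterol from acetyl-CoA through mevalonate, farnesyl diphosphate and squalene, or take it up in lipoproteins that are broken down in lysosomes. The transcription factors SREBP-1 and SREBP-2, encoded by SREBF1 and SREBF2, are held in the endoplasmic reticulum by INSIG proteins when sterols are plentiful, and are escorted by SCAP to the Golgi for activation when sterols are scarce. The active factors turn on genes of synthesis and uptake in the nucleus. Oxysterols activate the LXR receptors, which turn on efflux pumps, and surplus cholesterol is esterified for storage in lipid droplets.

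RNA was measured on 8 Affymetrix arrays, 2 for each of 4 ZR-75-1 lines: shEI24 clone 1 and shEI24 clone 2, which carry shRNA against EI24, a line carrying shGFP as the control, and parental cells without shRNA. ZR-75-1 is an established estrogen receptor-positive luminal breast cancer line, and all lines were grown in RPMI medium with serum. The methods name no chemical treatment of the cells used for the arrays. For the making of the knockdown lines they refer to earlier work, so any drug selection is not described. The shRNA lines are stable, and which stretch of EI24 their shRNAs target is not stated. The series design describes the knockdown lines as independent clones, so each clone, like shGFP and the parental cells, stands for a single line. Deposited values were log2 intensities, with array medians of 7.28 to 7.39, and the number of arrays limits the precision of every comparison.

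EI24, an endoplasmic reticulum-associated protein and the target of the knockdown, had 8.64 and 8.43 log2 units in shEI24 clone 1 and 9.25 and 9.19 in clone 2, against 11.97 and 11.91 in shGFP and 12.08 and 12.09 in parental cells. All shEI24 arrays lay below all control arrays, and the difference from shGFP was -3.06 ± 0.08 on the log2 scale (SE, limma adjusted p = 8.6e-09). Markers of cell identity moved with the knockdown. All 10 luminal markers were lower in shEI24 than in shGFP cells and all 8 mesenchymal markers were higher, with a log2 summed intensity of 13.21 to 13.84 in shEI24, 15.60 to 15.62 in shGFP and 15.74 to 15.76 in parental cells for the luminal list. The sum of the mesenchymal list was 14.96 to 15.03 in shEI24, 9.60 in both shGFP arrays and 9.75 to 9.92 in parental cells. ESR1, which defines the line as estrogen receptor-positive, was at 5.81 to 6.11 in shEI24 arrays, against 10.75 and 10.78 in shGFP and 10.70 and 10.59 in parental arrays. The receptor-positive label was thus borne out by ESR1 RNA in the control lines only. Losses within the luminal list were unequal, from -6.11 for CDH1 to -1.38 for KRT18 relative to shGFP. KRT8 was still at 11.76 to 12.08 in shEI24 arrays, and KRT19 was at -2.67 in clone 1 and -0.43 in clone 2. Of 7 fibroblast markers 0 passed the limma test and 1, FAP, had an unadjusted p under 0.05 (0.046), and their summed intensity was 9.51 to 9.69 in shEI24, 9.48 to 9.53 in shGFP and 9.44 to 9.62 in parental arrays. Of 7 macrophage markers CD14 and PTPRC were higher, by 0.89 and 0.21, and 5 did not pass. The 28.6% that rose was near the background, as 26.8% of all genes rose and 29.0% fell. PTPRC was dim, at 4.2 to 4.54 on all arrays, and did not pass in clone 1 (limma adjusted p = 0.16). The sum of the macrophage list was 9.67 to 9.95 in shEI24, against 9.41 to 9.58 in shGFP and 9.46 to 9.59 in parental arrays. The part of these shifts in the results on cholesterol genes was not tested, and in cultures measured in bulk fewer cells of a type and less RNA per cell cannot be told apart.

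In shEI24 cells 6 of the 9 enzymes from squalene on and both SREBP genes were lower than in shGFP cells. The 4 measured members of the sterol transport and storage group were all higher. Over the 29 members, 14 fell and 8 rose past an adjusted p of 0.05, and 7 did not pass. Among all 18417 genes, 29.0% fell and 26.8% rose, so 48.3% of the members against 29.0% of all genes fell, while the 27.6% that rose was near the background. The members had a median difference of -0.24 log2 units, beside 0.08 for all genes. At least 2-fold besides the adjusted p, 5 of the 29 members were higher and 5 lower, against 8.69% and 9.08% of all genes. At this minimum both shares of members were above those of all genes. The list was chosen with earlier results of these data known, so these shares describe the members and are not a test of the list.

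**Figure D1:**
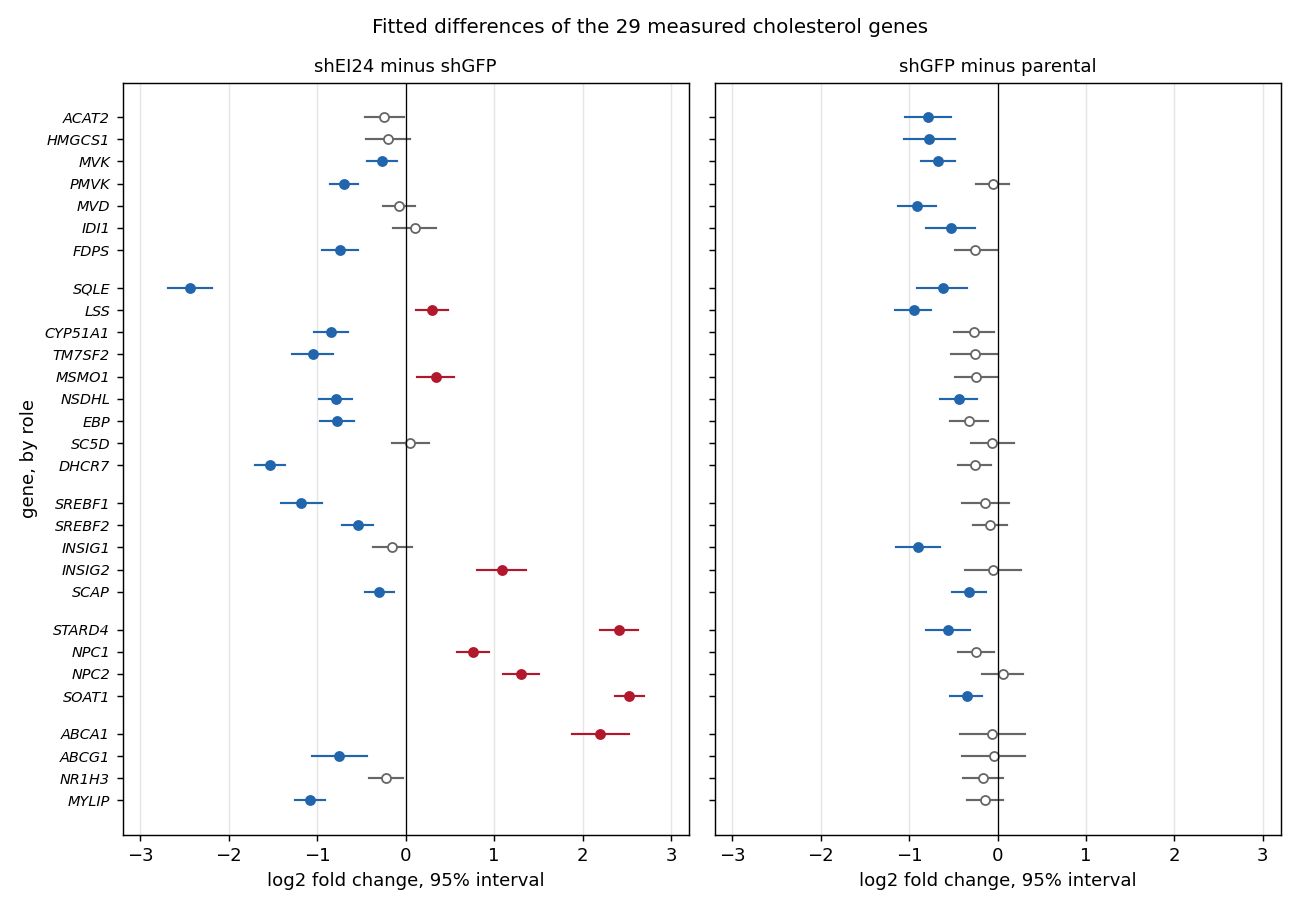
Fitted log2 differences of the 29 measured genes with 95% intervals, on the left shEI24 (mean of both clones) minus shGFP and on the right shGFP minus parental, genes grouped by role. Filled points passed the adjusted p of 0.05, red for higher and blue for lower, and open points did not. SQLE at -2.44 and SOAT1 at 2.53 mark the ends of the left panel, whereas in the right panel no gene passed as higher and 12 passed as lower.

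The clones gave similar counts when each was set against shGFP. In clone 1, 6 members rose and 13 fell, beside 23.0% and 26.6% of all genes, and in clone 2, 8 rose and 14 fell, beside 25.2% and 27.8% of all genes. Between the clones themselves 1 member, SCAP, was higher in clone 1 and 1, MSMO1, was lower, where 9.29% and 5.88% of all genes differed in those directions. Order of the single arrays, taken from the same values, put all 4 shEI24 arrays above all 4 control arrays for 6 members and below them for 14. The shares of all genes were 23.8% and 26.9%, and the other 9 members had overlap or an intermediate place. These 14 are not the 14 called lower, as NR1H3 lay below all controls without a call, whereas SCAP was called lower but overlapped.

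Promoter sequence was examined for the measured members because SREBP-2 acts on such genes together with NF-Y, which binds the CCAAT box, and with Sp1, which binds GC boxes. RefSeq windows (GRCh38.p14) of 250 bases before to 50 bases after an annotated start were found for 26 of the 29 genes, 36 windows in all, and none was listed for ACAT2, SQLE and ABCG1. A CCAAT box, searched as CCAAT on both strands, occurred in 14 of 19 windows of synthesis enzymes (73.7%) and in 7 of 17 windows of the other members (41.2%), against 34.6% of all 35116 windows. The GC box, searched as GGGCGG on both strands, occurred in 89.5% and 88.2% of the same windows and in 45.0% of all. The core of a sterol regulatory element, searched as TCACNCCAC on both strands, was present in 1 of 36 member windows, that of SREBF2, and in 1.13% of all windows. All windows together cover 27305 genes, more than the 18417 measured, and a gene with several windows counts more than once. Counted by gene, a CCAAT box occurred in 85.7% of synthesis enzymes and 58.3% of the other members, against 39.7% of all genes with a window. None of the 3 motifs contains another. Only the stated letters were searched, so sites spelled otherwise were not counted, and a missing match does not show that a site is absent. A match is a description of letters, not of binding.

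The 200 bases before the start are shown 5′ to 3′ on the gene's strand for 6 members. They are enzymes that differed between shGFP and parental cells (HMGCS1, MVD), enzymes that differed between shEI24 and shGFP cells (FDPS, DHCR7), the SREBP-2 gene, and STARD4, which rose. Where a gene has several windows, the first that holds a CCAAT box was taken. Capitals mark CCAAT or its reverse complement ATTGG, and in SREBF2 also the sterol regulatory element core TCACCCCAC. The windows lie at chr5:43313413-43313612 on the minus strand for HMGCS1, chr16:88663092-88663291 on the minus strand for MVD, chr1:155308666-155308865 on the plus strand for FDPS, chr11:71448394-71448593 on the minus strand for DHCR7, chr22:41832905-41833104 on the plus strand for SREBF2 and chr5:111512536-111512735 on the minus strand for STARD4.
HMGCS1: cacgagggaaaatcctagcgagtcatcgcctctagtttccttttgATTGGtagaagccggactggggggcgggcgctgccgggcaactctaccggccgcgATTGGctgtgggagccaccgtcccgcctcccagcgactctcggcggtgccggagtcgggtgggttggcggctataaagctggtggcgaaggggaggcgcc
MVD: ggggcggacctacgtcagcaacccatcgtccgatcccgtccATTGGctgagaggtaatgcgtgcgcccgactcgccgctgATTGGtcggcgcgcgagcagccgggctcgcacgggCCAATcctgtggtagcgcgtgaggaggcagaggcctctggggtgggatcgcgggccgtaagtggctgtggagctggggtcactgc
FDPS: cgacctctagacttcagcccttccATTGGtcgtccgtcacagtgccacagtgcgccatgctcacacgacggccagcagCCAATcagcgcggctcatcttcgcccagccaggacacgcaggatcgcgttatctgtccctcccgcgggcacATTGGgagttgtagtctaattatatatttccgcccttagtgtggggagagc
DHCR7: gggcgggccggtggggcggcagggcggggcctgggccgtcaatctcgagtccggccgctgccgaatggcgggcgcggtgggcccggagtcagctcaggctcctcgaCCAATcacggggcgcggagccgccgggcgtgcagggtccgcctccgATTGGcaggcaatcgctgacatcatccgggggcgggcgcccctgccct
SREBF2: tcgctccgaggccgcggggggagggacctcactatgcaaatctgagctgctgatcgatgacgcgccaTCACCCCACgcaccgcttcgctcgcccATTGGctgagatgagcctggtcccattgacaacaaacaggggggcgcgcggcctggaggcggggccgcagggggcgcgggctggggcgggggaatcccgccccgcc
STARD4: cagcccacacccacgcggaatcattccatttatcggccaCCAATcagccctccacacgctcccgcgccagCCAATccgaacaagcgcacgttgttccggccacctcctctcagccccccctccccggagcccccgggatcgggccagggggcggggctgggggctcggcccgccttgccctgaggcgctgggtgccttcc
Of these, MVD and FDPS hold 3 CCAAT boxes each, HMGCS1, DHCR7 and STARD4 hold 2 each and SREBF2 holds 1. Genes with such boxes are found among those that fell, that rose and that did not pass in shEI24 cells.

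Of the 7 enzymes that lead to farnesyl diphosphate, 3 fell in shEI24 relative to shGFP cells, 0 rose with 0 at an unadjusted p under 0.05 as well, and 4 did not pass. Thus 42.9% fell, where 29.0% of all genes fell and 26.8% rose. The median over the 7 was -0.24. FDPS, which makes farnesyl diphosphate, was at 8.69 to 8.83 in shEI24 arrays, against 9.40 to 9.55 in shGFP and 9.63 to 9.82 in parental arrays. Its difference from shGFP was -0.74 ± 0.09 (adjusted p = 8.9e-05), and its shEI24 arrays did not overlap any control. PMVK, the kinase that adds a second phosphate to mevalonate, behaved likewise at -0.70 ± 0.07 (adjusted p = 2.5e-05). MVK, which adds the first phosphate, had 8.07 and 8.12 in clone 1 and 8.19 and 8.19 in clone 2, against 8.45 and 8.37 in shGFP and 9.14 and 9.03 in parental cells, so the shEI24 arrays were lowest. Its difference from shGFP was small, -0.27 ± 0.08 (adjusted p = 0.013), and did not pass when the first shGFP array was left out (-0.23, adjusted p = 0.14).

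The other 4 of these enzymes had shEI24 values that overlapped those of shGFP, and both lay below parental cells. HMGCS1, which makes HMG-CoA, had 9.20 and 8.96 in clone 1, 9.14 and 8.81 in clone 2, 9.27 and 9.19 in shGFP and 10.00 and 10.00 in parental cells. ACAT2, which makes acetoacetyl-CoA in the cytosol, had 9.36 and 9.16 in clone 1, 9.02 and 8.79 in clone 2, 9.35 and 9.29 in shGFP and 10.17 and 10.05 in parental cells. MVD, which makes isopentenyl diphosphate, had 8.88 and 8.88 in clone 1, 9.05 and 8.94 in clone 2, 9.05 and 8.99 in shGFP and 10.00 and 9.85 in parental cells. In each of the 3 genes the parental arrays stood apart from the 6 arrays with an shRNA. IDI1, the isomerase that follows MVD, had 10.42 and 10.12 in clone 1, 10.62 and 10.37 in clone 2, 10.27 and 10.29 in shGFP and 10.79 and 10.83 in parental cells, again with parental cells highest. The 95% intervals of shEI24 minus shGFP were -0.45 to 0.05 for HMGCS1, -0.46 to -0.02 for ACAT2, -0.26 to 0.10 for MVD and -0.14 to 0.34 for IDI1, with adjusted p of 0.15, 0.065, 0.40 and 0.45. ACAT2 was at -0.42 ± 0.11 in clone 2 (adjusted p = 0.012) and -0.06 ± 0.11 in clone 1 (adjusted p = 0.68) relative to shGFP, while its difference between the clones missed the threshold (0.35 ± 0.11, adjusted p = 0.071).

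**Figure D2:**
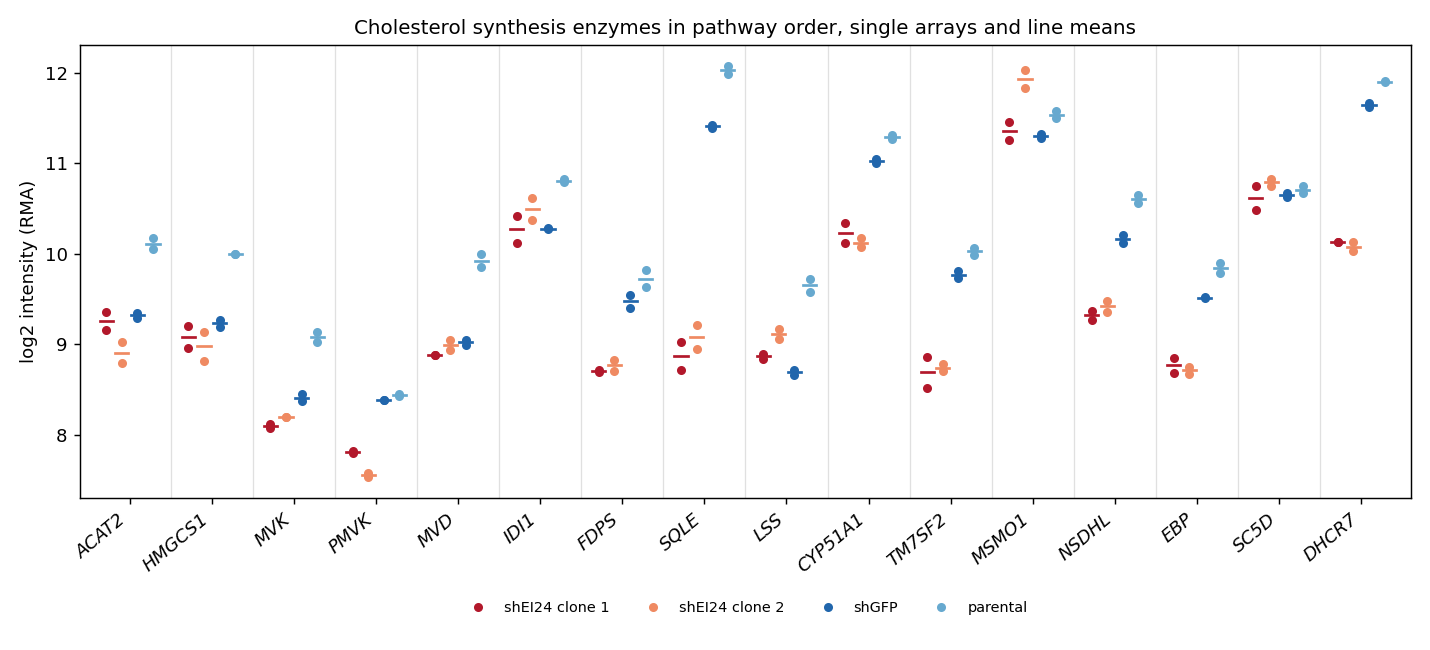
Log2 intensity of the 16 measured synthesis enzymes in pathway order on the 8 arrays, 2 points per line with the line mean as a bar, in the order shEI24 clone 1, shEI24 clone 2, shGFP and parental. SQLE and DHCR7 show the widest gap between shEI24 and shGFP, while ACAT2, HMGCS1 and MVD show theirs between shGFP and parental cells.

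Of the 9 enzymes from squalene to sterols, 6 fell in shEI24 relative to shGFP cells, 2 rose and 1 did not pass, with a median of -0.79. That is 66.7% lower and 22.2% higher, beside 29.0% and 26.8% of all genes. SQLE, squalene epoxidase and a rate-limiting enzyme of the pathway, was at 9.02 and 8.72 in clone 1 and 9.21 and 8.95 in clone 2, against 11.43 and 11.39 in shGFP and 11.99 and 12.08 in parental cells. All shEI24 arrays were thus more than 2 log2 units below every control array. The difference from shGFP was -2.44 ± 0.11 (95% interval -2.69 to -2.19, adjusted p = 1.6e-07), 5.42-fold lower, and was -2.54 in clone 1 and -2.34 in clone 2. Among all genes SQLE stood at percentile 69.3 of intensity in shEI24, against 96.2 in shGFP and 98.4 in parental cells. DHCR7, which reduces the last double bond on a route to cholesterol, had 10.13 and 10.13 in clone 1 and 10.13 and 10.03 in clone 2, against 11.67 and 11.62 in shGFP and 11.90 and 11.91 in parental cells. Neither clone came near a control array, and the difference from shGFP was -1.54 ± 0.07 (adjusted p = 2.3e-07), 2.91-fold lower. TM7SF2, a sterol reductase of the endoplasmic reticulum, had 8.52 and 8.86 in clone 1 and 8.70 and 8.78 in clone 2, against 9.81 and 9.73 in shGFP and 10.07 and 9.99 in parental cells. It was 2.08-fold lower (-1.05 ± 0.10, adjusted p = 2.2e-05).

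CYP51A1, the lanosterol demethylase, NSDHL, a sterol dehydrogenase, and EBP, a sterol isomerase, fell by 0.85, 0.79 and 0.78 on the log2 scale, with adjusted p of 2.9e-05 to 3.9e-05, and none of their shEI24 arrays reached a control array. A dimmer cluster of CYP51A1 that was set aside gave the same direction, at a mean of 9.30 in shEI24, 9.93 in shGFP and 10.26 in parental cells. SC5D, a sterol desaturase, had 10.48 to 10.83 in shEI24 arrays, 10.67 and 10.63 in shGFP and 10.67 and 10.75 in parental cells, and its difference from shGFP had a 95% interval of -0.16 to 0.26 (adjusted p = 0.67).

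LSS and MSMO1 went against the other enzymes of this stretch, by small amounts. LSS, lanosterol synthase, had 8.89 and 8.84 in clone 1 and 9.17 and 9.06 in clone 2, against 8.66 and 8.72 in shGFP and 9.72 and 9.58 in parental cells. The shEI24 arrays therefore lay between the control lines: the difference was 0.30 ± 0.08 from shGFP (adjusted p = 0.011) and -0.66 from parental cells (adjusted p = 9.3e-05). MSMO1, the methylsterol monooxygenase, had 11.46 and 11.26 in clone 1 and 12.04 and 11.83 in clone 2, against 11.33 and 11.28 in shGFP and 11.50 and 11.58 in parental cells. Only clone 2 lay above all controls. The difference from shGFP was 0.63 ± 0.11 in clone 2 (adjusted p = 0.00099) and 0.06 ± 0.11 in clone 1 (adjusted p = 0.70), and clone 1 was lower than clone 2 by the test of that difference (-0.57 ± 0.11, adjusted p = 0.0087). Over both clones MSMO1 was at 0.34 ± 0.09 (adjusted p = 0.012) relative to shGFP and at 0.10 relative to parental cells (adjusted p = 0.37). Both calls against shGFP were lost when either shGFP array was left out (LSS adjusted p of 0.11 and 0.052, MSMO1 0.062 and 0.089).

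Among the 5 genes of SREBP control, 3 fell, 1 rose and 1 did not pass, where 29.0% of all genes fell and 26.8% rose. SREBF1, which encodes SREBP-1 and is linked most closely to fatty acid genes, had 8.62 and 8.58 in clone 1 and 8.55 and 8.77 in clone 2, against 9.80 and 9.82 in shGFP and 10.09 and 9.81 in parental cells. It was 2.27-fold lower than in shGFP (-1.18 ± 0.10, adjusted p = 9.2e-06), with no overlap. SREBF2, which encodes SREBP-2 and is linked most closely to cholesterol genes, had 9.02 and 8.97 in clone 1 and 9.30 and 9.21 in clone 2, against 9.66 and 9.68 in shGFP and 9.80 and 9.70 in parental cells. The groups did not overlap here either, and the difference was -0.54 ± 0.07 (adjusted p = 0.00021), with -0.68 in clone 1 and -0.41 in clone 2. Relative to parental cells shGFP was at -0.14 for SREBF1 and -0.08 for SREBF2, with 95% intervals of -0.40 to 0.13 and -0.28 to 0.11.

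INSIG1 and INSIG2, which retain the SREBP and SCAP complex, differed in their pattern. INSIG2 had 9.09 and 8.81 in clone 1 and 8.69 and 8.36 in clone 2, against 7.71 and 7.59 in shGFP and 7.78 and 7.62 in parental cells. All shEI24 arrays were above the controls, 2.12-fold over shGFP (1.09 ± 0.12, adjusted p = 5.7e-05). INSIG1, itself an SREBP target, had 9.53 and 9.42 in clone 1 and 9.56 and 9.31 in clone 2, against 9.66 and 9.55 in shGFP and 10.57 and 10.44 in parental cells. Here shEI24 and shGFP overlapped and parental cells were highest, with a difference from shGFP of -0.15 (95% interval -0.37 to 0.07, adjusted p = 0.22). SCAP, the escort of SREBP, had 9.38 and 9.35 in clone 1 and 8.85 and 8.83 in clone 2, against 9.37 and 9.44 in shGFP and 9.69 and 9.75 in parental cells. Clone 2 lay below every other array, whereas clone 1 overlapped shGFP. Clone 2 differed from shGFP by -0.56 ± 0.08 (adjusted p = 0.00039) and clone 1 by -0.04 ± 0.08 (adjusted p = 0.75), and the clones differed from each other by 0.53 ± 0.08 (clone 1 minus clone 2, adjusted p = 0.0038). The mean of both clones passed at -0.30 ± 0.07 (adjusted p = 0.0064) but not when the second shGFP array was left out (-0.26, adjusted p = 0.082).

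All 4 members of the sterol transport and storage group rose in shEI24 relative to shGFP cells, with a median of 1.86. In each, all shEI24 arrays were above all controls. Among all genes 26.8% rose, and 23.8% had all shEI24 arrays above all controls. The 11 other listed genes of transport and storage were mixed, as 5 rose, 3 fell and 3 did not pass. SOAT1, which esterifies cholesterol for storage, had 11.08 and 11.01 in clone 1 and 10.81 and 10.81 in clone 2, against 8.39 and 8.39 in shGFP and 8.73 and 8.76 in parental cells. Both clones were thus more than 2 log2 units above the controls, 5.79-fold over shGFP (2.53 ± 0.07, 95% interval 2.37 to 2.69, adjusted p = 9.5e-09). SOAT1 moved to percentile 93.7 of all genes in shEI24, against 58.3 in shGFP and 62.8 in parental cells. STARD4, a carrier of cholesterol between membranes, had 9.63 and 9.42 in clone 1 and 9.79 and 9.67 in clone 2, against 7.27 and 7.15 in shGFP and 7.85 and 7.69 in parental cells. It was 5.33-fold over shGFP (2.41 ± 0.10, adjusted p = 7.6e-08) and at 1.85 relative to parental cells. NPC2, which binds cholesterol in the lysosome, had 11.35 and 11.27 in clone 1 and 11.59 and 11.44 in clone 2, against 10.15 and 10.08 in shGFP and 10.15 and 9.95 in parental cells. The control lines overlapped for NPC2 and the clones did not reach them, at 2.46-fold over shGFP (1.30 ± 0.09, adjusted p = 2.4e-06). NPC1, the membrane protein that takes cholesterol from NPC2, was 1.69-fold higher (0.76 ± 0.08, adjusted p = 3.6e-05), with 10.89 to 11.15 in shEI24 arrays, 10.31 and 10.24 in shGFP and 10.51 and 10.53 in parental cells.

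**Figure D3:**
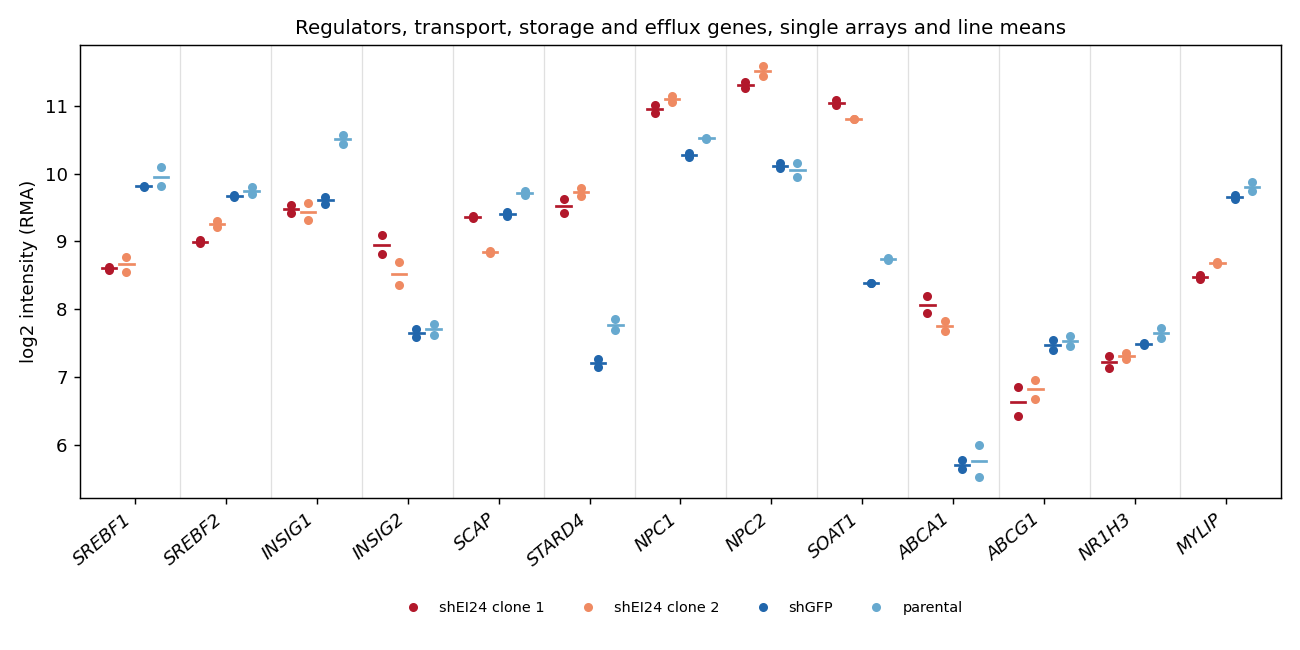
Log2 intensity of the 13 measured genes of SREBP control, sterol transport and storage, and efflux and LXR signaling on the 8 arrays, 2 points per line with the line mean as a bar, in the order shEI24 clone 1, shEI24 clone 2, shGFP and parental. STARD4, SOAT1 and ABCA1 lie more than 1 log2 unit higher in every shEI24 array than in any control array.

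The 4 genes of efflux and LXR signaling did not move together, with 1 higher, 2 lower and 1 not past the threshold. Among all genes 26.8% were higher and 29.0% lower. ABCA1, the pump that loads cholesterol onto apolipoprotein A-I and an LXR target, had 8.19 and 7.94 in clone 1 and 7.82 and 7.67 in clone 2, against 5.77 and 5.64 in shGFP and 5.52 and 6.0 in parental cells. The shEI24 arrays stood well above the controls, 4.59-fold over shGFP (2.20 ± 0.14, adjusted p = 1.4e-06). In shGFP and parental cells ABCA1 was at percentile 14.4 and 15.1 of all genes and in shEI24 at 49.5, and differences from so dim a level are compressed on an array. ABCG1, a pump that passes cholesterol to lipoprotein particles and another LXR target, went the other way at 6.42 to 6.96 in shEI24, 7.55 and 7.40 in shGFP and 7.60 and 7.45 in parental cells. It fell by 0.75 on the log2 scale (SE 0.14, adjusted p = 0.0012), with the shEI24 arrays below all controls.

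MYLIP, a ubiquitin ligase for lipoprotein receptors and an LXR target, had 8.44 and 8.5 in clone 1 and 8.70 and 8.67 in clone 2, against 9.63 and 9.68 in shGFP and 9.87 and 9.74 in parental cells. It was 2.11-fold lower than in shGFP (-1.08 ± 0.08, adjusted p = 2.9e-06), again without overlap. NR1H3, which encodes LXR alpha, had 7.13 to 7.35 in shEI24, 7.50 and 7.47 in shGFP and 7.72 and 7.57 in parental cells, and missed the threshold at -0.22 ± 0.09 (adjusted p = 0.055). Of ABCA1, ABCG1 and MYLIP, therefore, 1 rose and 2 fell.

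Cells with the control shRNA were themselves lower than parental cells in many genes of synthesis. Relative to parental cells, 12 of the 29 members fell in shGFP cells and 0 rose, beside 7.44% and 3.21% of all genes, and at an unadjusted p under 0.05 the count of higher members was also 0. In shGFP cells 28 of the 29 differences were negative, with a median of -0.26 against -0.03 for all genes. The 12 comprised 5 of 7 enzymes up to farnesyl diphosphate (median -0.67), 3 of 9 from squalene on, 2 of 5 of SREBP control, 2 of 4 of transport and storage and 0 of 4 of efflux and LXR signaling. With the values given above, LSS differed most, at -0.95 (adjusted p = 0.00075), followed by MVD at -0.91 (0.00097) and INSIG1 at -0.90 (0.0021), then ACAT2 at -0.79 (0.0039), HMGCS1 at -0.77 (0.0077), MVK at -0.67 (0.0026), SQLE at -0.62 (0.017), STARD4 at -0.56 (0.015) and IDI1 at -0.53 (0.029). NSDHL, SOAT1 and SCAP differed by less, at -0.44, -0.35 and -0.32. Leaving out a shGFP or parental array lowered the calls among the members and among all genes alike. Without the first shGFP array 5 members fell, beside 1.94% of all genes, and without the second 4 fell, beside 1.31%. Without the first parental array 5 members fell, beside 1.94% of all genes, and without the second 7 fell, beside 3.58%. MVK, MVD, LSS and INSIG1 passed in every one of these fits.

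Both comparisons share the shGFP arrays, so each is given with its own values rather than set against the other. With parental cells as the control in place of shGFP, 21 members fell and 6 rose in shEI24 cells, beside 30.8% and 25.1% of all genes, with a median of -0.80. All 7 enzymes up to farnesyl diphosphate and 7 of 9 from squalene on were then lower. Of the genes that overlapped shGFP, ACAT2 was at -1.03, HMGCS1 at -0.97, MVD at -0.99, INSIG1 at -1.05 and IDI1 at -0.43 relative to parental cells. SQLE was at -3.06 and DHCR7 at -1.80. The 4 transport and storage genes and ABCA1 and INSIG2 were the 6 that were higher, so their direction did not depend on which control line was used.

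Beside the members, 36 of 41 other listed genes of sterol metabolism were measured, of which 17 rose, 12 fell and 7 did not pass in shEI24 relative to shGFP cells, with a median of 0.18 beside 0.08 for all genes. Of these genes 47.2% rose and 33.3% fell, against 26.8% and 29.0% of all genes, so the share that fell was near the background. Of 6 genes of SREBP cleavage and sterol-regulated degradation 1 rose and 4 fell, of 4 isoprenoid and sterol enzymes 3 rose and 1 fell, of 6 uptake genes 4 rose and 2 fell, of 11 transport and storage genes 5 rose and 3 fell and of 9 oxysterol and LXR genes 4 rose and 2 fell. NCEH1, a hydrolase of stored cholesteryl ester that opposes SOAT1, had 12.61 and 12.47 in clone 1 and 11.79 and 11.73 in clone 2, against 8.91 and 8.74 in shGFP and 9.45 and 9.36 in parental cells. It was the gene of this list with the largest change, 3.32 ± 0.09 (adjusted p = 6.2e-09). CH25H, which makes an oxysterol, had 9.5 and 9.15 in clone 1 and 9.33 and 9.37 in clone 2, against 6.46 and 6.64 in shGFP and 6.51 and 7.10 in parental cells, a difference of 2.79 ± 0.16 (adjusted p = 8.8e-07). RNF139, a ubiquitin ligase of the endoplasmic reticulum, had 8.44 to 8.69 in shEI24, 10.85 and 10.88 in shGFP and 10.74 and 10.77 in parental cells (-2.27 ± 0.09, adjusted p = 6.3e-08). STARD5, a carrier of the STARD4 family, had 6.88 to 7.15 in shEI24, 8.76 and 8.67 in shGFP and 8.66 and 8.52 in parental cells (-1.67 ± 0.10, adjusted p = 7.8e-07). Separation from both shGFP arrays was a condition for naming these 4 genes, so it is not a result. Their shEI24 arrays lay beyond the parental arrays as well, and STARD5 went opposite to STARD4.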

How the data were processed

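The authors deposited log2 intensities of 33297 transcript clusters on each array. GCOS and RMA are listed by the submitters' notes on processing, without version or genome build. RMA makes the arrays share a distribution, so a change in total RNA per cell is not seen. The methods name an exon array, whereas the identifiers matched GEO's annotation of a gene array, in which 19460 clusters carry 1 symbol. Only these clusters were used, and the brightest of each gene was kept, giving 18417 genes.

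Line means were fitted to the deposited log2 values of all 8 arrays by lmFit and eBayes (limma 3.58.1, R 4.3.3, 4 residual degrees of freedom). Benjamini-Hochberg adjustment ran over all 18417 genes, and an adjusted p under 0.05 was called. The first number of an shEI24 label was taken as the clone. Whether the 2 arrays per line represent separate cultures is not stated, and the p-values then reflect array-to-array spread that may be technical. In either case the spread in this fit came from arrays within lines. Its p-values therefore do not cover variation between lines, and an effect of the knockdown cannot be told apart from a difference between lines. The members and the gene lists were chosen with earlier results of these data known. Values on each array are given for members that changed at least 2-fold, that differed between clones or control lines by at least 0.5 past the threshold, and for SREBF1, SREBF2, INSIG1, ABCA1 and SQLE. Of the other sterol genes past the threshold, the 4 named had the largest change among those with all shEI24 arrays beyond both shGFP arrays. The fit was checked on simulated data. The alternatives tried were other control lines, line means, other normalizations, filters and variance models, the mean over clusters, the replicate number as a block, the methods' unpaired test, a 2-fold minimum and leaving out each array.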

Additional observations from a re-analysis of the deposited data

Results flagged for a closer look

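Both results listed here are differences between the shEI24 clones, each past the threshold in the limma test of clone 1 minus clone 2. For MSMO1 it was -0.57 on the log2 scale (adjusted p = 0.0087), with 11.46 and 11.26 in clone 1 and 12.04 and 11.83 in clone 2. For SCAP it was 0.53 (adjusted p = 0.0038), with 9.38 and 9.35 in clone 1 and 8.85 and 8.83 in clone 2. EI24 itself was at 8.64 and 8.43 in clone 1 and 9.25 and 9.19 in clone 2, and whether the depth of knockdown has a part in either difference was not tested. No line holds enough arrays to look for a single outlying array.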

How the results depend on the processing

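For the 29 genes in shEI24 relative to shGFP cells, 508 of 551 values under the alternatives other than the 2-fold minimum kept their direction and their side of the threshold, 15 lost and 19 gained the call, and 9 changed sign. The sign changed for MVD under a repeated quantile normalization (0.05), for IDI1 with parental cells as the control (-0.43), with shGFP and parental pooled (-0.16) and with line means (-0.16), for LSS in the same settings (-0.66, -0.18 and -0.18), and for SC5D with parental cells (-0.01) and without shEI24 clone 1 replicate 1 (-0.02). SC5D reached 0.12 at most when other single arrays were left out. The cause was not tested. Lower and higher members numbered 21 and 6 with parental cells, beside 30.8% and 25.1% of all genes, and 18 and 6 with pooled controls (29.6% and 27.5%). With line means they numbered 12 and 6 (18.6% and 14.9%), and by the methods' t-test after adjustment 13 and 6 (20.2% and 17.4%). The calls among all genes thus fell as well in the last 2 settings. A 2-fold minimum left 5 higher and 5 lower members in shEI24, beside 8.69% and 9.08% of all genes, and 5 lower in clone 1 (8.38%). In clone 2 it left 4 higher and 4 lower (8.74% and 9.94%), and between clones 0 and 0 (1.09% and 0.445%). In shGFP relative to parental cells 0 were lower (0.413%). At shares this small, 0 calls say little about the members. Other sterol genes at this minimum numbered 5 higher and 7 lower. Of these other genes 10 were higher with line means and 11 by the methods' t-test, against 17. The shares of all genes were 14.9%, 17.4% and 26.8%. Between clones, members higher in clone 1 numbered 5 with the replicate block (13.0% of all genes), 4 with an intensity trend and robust prior (12.2%), 3 after repeated quantile normalization (10.4%) and 2 without the dimmest 25% of genes (13.1%), and 1 to 2 when single arrays were left out (5.27% to 8.31%). Those lower numbered 2, 2, 3 and 2 in the same settings (9.71%, 8.31%, 8.79% and 9.05%) and 0 to 1 with single arrays left out (2.53% to 5.14%), since MSMO1 missed the threshold without shEI24 clone 2 replicate 1 (-0.47, adjusted p = 0.055). Members lower in shGFP relative to parental cells numbered 4 to 12 when single arrays were left out, beside 1.31% to 7.93% of all genes. The replicate numbers of the labels are not said to pair the arrays. Same-numbered arrays deviated together (correlations of 0.25 to 0.59 between lines). With the number as a block, 8 members were higher and 16 lower in shEI24 relative to shGFP cells, as ACAT2 (adjusted p = 0.012) and NR1H3 (adjusted p = 0.039) passed. Calls among all genes rose too, to 34.2% higher and 31.2% lower, from 26.8% and 29.0% without the block. Genes as dim as ABCA1 in the control lines are measured near background, which limits the size of fold that can be seen.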
